A study of Arabidopsis thaliana with 6 samples.

Results

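The genes described here build and loosen the growing plant cell wall or form the microtubules that lie beneath it. They were taken by symbol from the annotation table of the Affymetrix ATH1 array: every probe set assigned to exactly 1 gene named EXPA, EXPB, XTH, TUA, TUB, IQD, FLA or CESA with a number, or CSL with a letter and a number. This gave 52 probe sets for 52 loci, of 22746 probe sets without the array's own controls. The annotation names 13286 loci alone for a probe set. They are 10 α-expansins, 4 β-expansins, 9 xyloglucan endotransglucosylase/hydrolases (XTH), 2 α-tubulins, 5 β-tubulins, 15 IQD proteins and 7 cellulose synthase-like (CSL) genes, and 0 FLA or CESA genes. Coverage of the families is partial. The RefSeq gene table for Arabidopsis names 25 α-expansin, 6 β-expansin, 33 XTH, 6 α-tubulin, 9 β-tubulin, 33 IQD and 32 CSL genes. It also names 20 FLA and 10 CESA genes, so these families are absent here for want of a matching symbol in the array's annotation. Probe sets with no name or with several genes were not counted as members.

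RNA came from whole Arabidopsis seedlings of Col-0, the common wild-type accession. The ozone group had received 500 ppb ozone for 6 h, and the control group air cleaned with charcoal and purafill for the same 6 h. Both groups sat in sealed chambers under a humidified gas flow, in the plates on which they had grown (0.8% agar, 20 °C, 16 h light and 8 h dark), at developmental stage 1.04, and RNA was taken directly after fumigation. Each group had 3 replicates on 1 array each, so each comparison is of 3 ozone with 3 control arrays.

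Plant cells grow by yielding of the wall to turgor. Expansins loosen the wall without cutting it, XTH enzymes cut and rejoin xyloglucan, the polymer that coats cellulose, and CSL enzymes make the backbones of xyloglucan, mannans and related polymers. Tubulin dimers of an α and a β subunit form cortical microtubules, which guide the deposition of cellulose and with it the direction of growth. IQD proteins bind calmodulin, and many of them sit on microtubules.

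After ozone, genes fell in each of the expansin, XTH, β-tubulin and IQD families, while 1 or 2 members rose in each of the α-expansin, XTH, IQD and CSL families. Signals are MAS5 values on a linear scale, which give 1 number per probe set and array, and fold changes are given as log2 ratios of ozone over control. A total of 35 members were bright enough to be tested (a mean log2 signal over the 6 arrays at or above the 40th percentile, a signal of 31.2). Of these 35, 15 fell and 5 rose at a limma adjusted p under 0.05, and 15 did not pass. Over the array, 28.0% of 13648 tested probe sets passed, 14.9% lower and 13.0% higher. The median log2 ratio was -0.66 over the 35 members and -0.15 over all tested probe sets. On the same log scale, the control mean of 5 tested members (EXPA7, EXPA8, EXPA18, XTH20 and IQD19) reached the filter level and the ozone mean did not, and for IQD22 it was the reverse, so the filter and the change are not independent for these 6. Over all 52 members without the filter, the median was -0.60, against -0.17 for all 22746 probe sets. All 3 ozone arrays lay below all 3 control arrays for 23 of the 52 and above them for 6, while over the array this was so for 21.8% and 13.8% of probe sets.

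**Figure D1:**
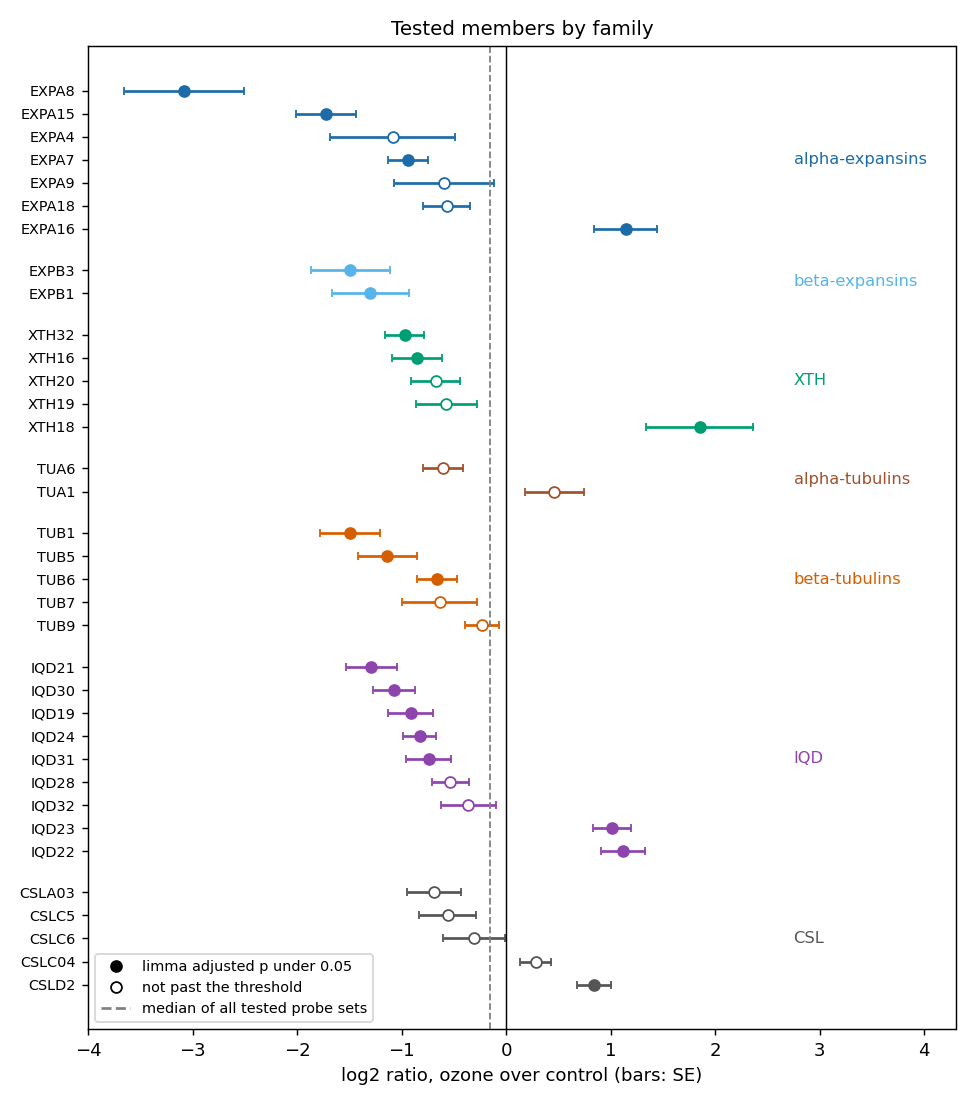
Log2 ratio (ozone over control, x axis, bars show the SE, n = 3 arrays each) of the 35 tested members, grouped by family. Filled points passed the limma threshold. The dashed line marks the median of all tested probe sets at -0.15, and 28 of the 35 members lie below 0 (61.5% of all tested probe sets did), from EXPA8 at -3.08 to XTH18 at 1.85.

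Of 7 tested α-expansins, 3 fell, 1 rose and 3 did not pass, with a median log2 ratio of -0.94. EXPA8 had signals of 25.4, 12.4 and 78.6 on the ozone arrays (replicates 1, 2 and 3), against 278.9, 213.7 and 253.5 on the control arrays. The groups are far apart, and in relative terms the ozone arrays differ among themselves more than the controls do. Its log2 ratio was -3.08 (SE 0.58, limma adjusted p = 0.00666). The size rests on the dim ozone arrays: it was -2.45 with 16 and -1.65 with 64 added to every signal, -2.47 without ozone replicate 2 and -3.80 without ozone replicate 3, past the threshold in each case. EXPA15 had 97.8, 97.3 and 177.3 in ozone, against 291.5, 462.1 and 449.3 in control, a log2 ratio of -1.72 (SE 0.29, adjusted p = 0.00417). For both genes ozone replicate 3 was the highest ozone array and still lay below every control.

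EXPA7, an expansin of root hair cells, was dim, with 28.2, 21.5 and 22.3 in ozone against 44.3, 45.3 and 47.6 in control. It fell by 0.94 on the log2 scale, or by 0.63 with 16 added to every signal (adjusted p = 0.0101, and 0.0506 without control replicate 3). EXPA18, the other root hair expansin, had 30.1, 21.0 and 28.7 in ozone against 45.5, 35.8 and 36.4 in control. Its groups did not overlap either, but its log2 ratio of -0.57 did not pass (adjusted p = 0.0938). In RNA of whole seedlings, fewer cells of a type and less RNA per cell cannot be told apart. The root marker PYK10, a β-glucosidase, had 2419.8, 1836.8 and 1805.8 in ozone against 3350.2, 2154.2 and 2218.6 in control, with overlap of the groups and a log2 ratio of -0.33 (adjusted p = 0.315, and 0.00754 with the replicate number as a block). It also passed without both replicates numbered 1, and its log2 ratio was -0.08 after quantile normalization. Its part in the root hair genes' values was not tested.

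EXPA16 went the other way. It had 73.8, 73.3 and 98.1 in ozone, against 24.1, 54.3 and 37.7 in control, and every ozone array was above every control array. It rose 2.21-fold (log2 ratio 1.14, SE 0.31, adjusted p = 0.0269). The call was lost without ozone replicate 2, ozone replicate 3 or control replicate 3 (0.0699, 0.0775 and 0.0718). EXPA4 and EXPA9 differed more between replicate numbers than between groups: EXPA4 had 56.2, 98.4 and 199.9 in ozone against 92.7, 341.4 and 334.7 in control, and EXPA9 had 33.2, 88.4 and 76.2 in ozone against 48.3, 119.7 and 132.3 in control. Their log2 ratios of -1.09 and -0.59 did not pass (adjusted p = 0.211 and 0.392), but did with the replicate number as a block (0.00263 and 0.00994), and EXPA4 also without control replicate 1 (log2 ratio -1.71, adjusted p = 0.0302). In both genes replicate 1 was the lowest array of its group.

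Both tested β-expansins fell. These are a sister family of the α-expansins, best studied in grass pollen. EXPB3 had 76.3, 104.4 and 184.5 in ozone, against 202.9, 384.6 and 419.2 in control, which is 2.81-fold lower (log2 ratio -1.49, SE 0.38, adjusted p = 0.0220). EXPB1 had 21.4, 30.7 and 54.7 in ozone, against 57.8, 90.2 and 102.9 in control (log2 ratio -1.30, SE 0.37, adjusted p = 0.0335). In each gene replicate 1 was the lowest and replicate 3 the highest array of both groups, and ozone replicate 3 came close to control replicate 1. Leaving out ozone replicate 1, ozone replicate 2, control replicate 2 or control replicate 3 ended both calls, with adjusted p of 0.0532 to 0.0812 for EXPB3 and 0.0743 to 0.113 for EXPB1. Without the filter on dim probe sets EXPB1 was not past the threshold.

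Of 5 tested XTH genes, 2 fell, 1 rose and 2 did not pass (median log2 ratio -0.68). XTH32, of the clade that holds xyloglucan hydrolases, had 69.0, 63.4 and 92.6 in ozone, against 143.8, 146.0 and 144.7 in control. The control arrays were nearly equal, and the log2 ratio was -0.97 (SE 0.19, adjusted p = 0.00734). XTH16 had 122.4, 81.2 and 125.0 in ozone, against 222.0, 218.0 and 151.5 in control (log2 ratio -0.85, adjusted p = 0.0305). This call did not hold with each array centred on its median, nor without ozone replicate 2 (adjusted p = 0.0970), control replicate 1 (0.0688) or control replicate 2 (0.105).

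XTH18 (AT4G30280) and XTH19 (AT4G30290) are next to each other in the genome, with 0 protein-coding genes between them. XTH18 had 468.2, 153.9 and 113.4 in ozone, against 84.1, 43.4 and 47.5 in control. All ozone arrays were above all controls, and replicate 1 was the highest array of both groups. It rose 3.61-fold (log2 ratio 1.85, SE 0.51, adjusted p = 0.0300), a call that was lost when dim probe sets were kept and in the fits that left out ozone replicate 2, control replicate 2 or control replicate 3 (0.0641 to 0.0941). Without ozone replicate 1, the highest array, its log2 ratio was 1.24 (adjusted p = 0.0293). XTH19 had 49.6, 27.9 and 27.7 in ozone, against 46.3, 42.1 and 64.5 in control, with overlap of the groups and a log2 ratio of -0.57 (adjusted p = 0.180, 0.0490 without ozone replicate 1, and past the threshold without both replicates numbered 1). XTH20, known like XTH19 from the healing of cut stems, had 29.9, 19.2 and 28.5 in ozone against 45.6, 37.3 and 39.2 in control. The groups of XTH20 did not overlap, and its log2 ratio of -0.68 missed the threshold (adjusted p = 0.0653, and 0.0277 with the block). The difference between the changes of XTH18 and its neighbour was not tested.

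**Figure D2:**
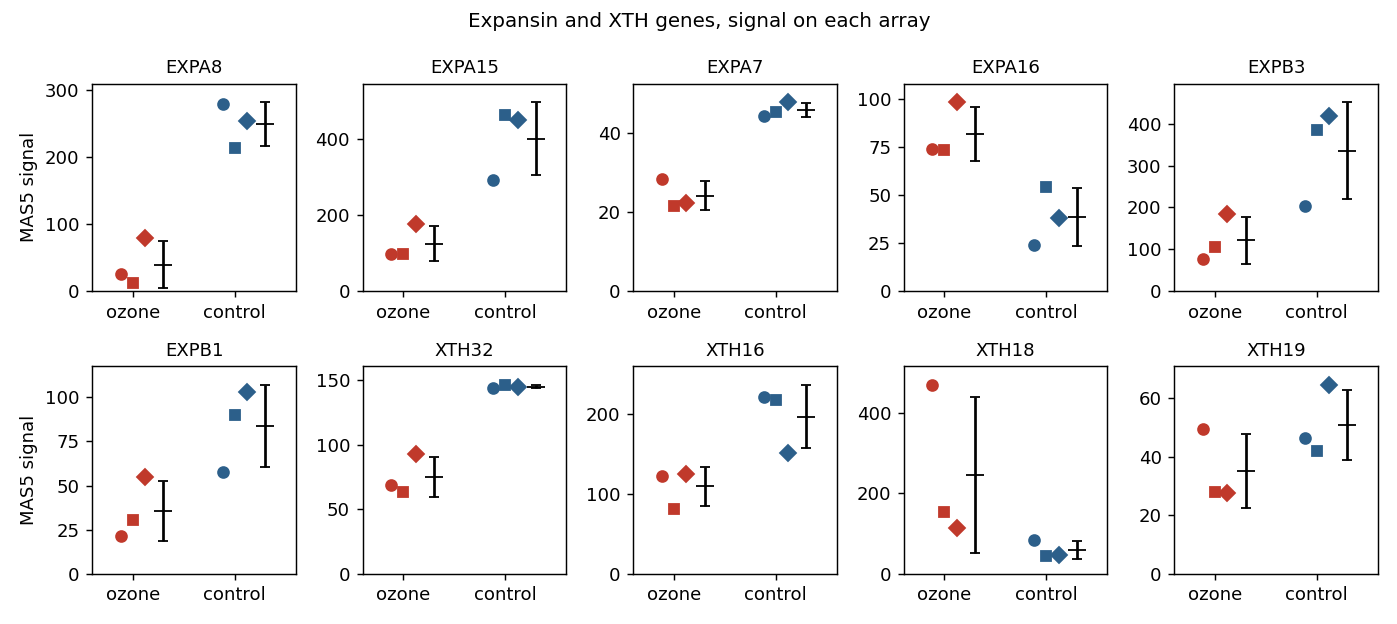
MAS5 signal (y axis, linear, from 0) of 10 expansin and XTH genes on each array, ozone left and control right. Circles, squares and diamonds are replicates 1, 2 and 3, and the bars beside them show the mean ± SD (n = 3). EXPA16 and XTH18 are higher on every ozone array, XTH19 overlaps, and the other genes are lower on every ozone array.

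All 5 β-tubulins had negative log2 ratios, and 3 fell. TUB1 had 54.1, 32.0 and 69.8 in ozone, against 156.0, 126.2 and 137.8 in control, 2.82-fold lower (log2 ratio -1.50, SE 0.29, adjusted p = 0.00719). TUB5 had 238.6, 290.8 and 469.2 in ozone, against 539.6, 840.6 and 763.5 in control (log2 ratio -1.14, SE 0.28, adjusted p = 0.0197). TUB6 had 197.6, 163.1 and 259.9 in ozone, against 309.1, 331.2 and 321.8 in control (log2 ratio -0.66, SE 0.19, adjusted p = 0.0366). In these 3 genes no ozone array reached the lowest control. TUB5 was not past the threshold in fits that left out ozone replicate 2, control replicate 2 or control replicate 3 (adjusted p 0.0685 to 0.0778). The call of TUB6 was lost without any array other than ozone replicate 3 (0.0546 to 0.117), without both replicates numbered 1 and without the filter on dim probe sets.

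TUB7 had 367.5, 156.9 and 218.3 in ozone, against 547.3, 272.4 and 315.3 in control. Replicate 1 was the highest array in both groups, and the log2 ratio of -0.63 did not pass (adjusted p = 0.225, and 0.00222 with the block). TUB9, a β-tubulin best known from pollen, had 557.0, 451.4 and 502.0 in ozone against 681.5, 542.2 and 554.7 in control, with overlap and a log2 ratio of -0.23 (adjusted p = 0.322).

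The 2 α-tubulin members had log2 ratios of opposite sign, and 0 passed the limma threshold (1 had an unadjusted p under 0.05). A probe set shared by TUA3 and TUA5, and so no member, fell without overlap of the groups (log2 ratio -0.80, limma adjusted p = 0.0134). Its call was lost without ozone replicate 2 or control replicate 3. TUA6, widely used as a fluorescent marker of microtubules, had 702.7, 768.8 and 992.1 in ozone against 1046.2, 1378.3 and 1302.7 in control. The groups did not overlap. Its log2 ratio of -0.60 (SE 0.19) had an adjusted p of 0.050016, just above the threshold, which it passed with the block (0.00165), with 16 or 64 added to every signal, with the filter at the 60th percentile, without ozone replicate 3 (0.0352), without control replicate 1 (0.0287), without both replicates numbered 1 and without the probe sets that are shared between genes or sequences. TUA1, expressed mainly in pollen, had 76.3, 121.3 and 123.4 in ozone against 55.1, 100.9 and 78.6 in control. Its groups overlapped, and its log2 ratio of 0.46 passed with the block only (adjusted p = 0.260, and 0.0260 with the block).

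Of 9 tested IQD genes, 5 fell, 2 rose and 2 did not pass. IQD21 had 69.2, 52.0 and 101.3 in ozone, against 177.7, 176.6 and 169.5 in control (log2 ratio -1.29, SE 0.24, adjusted p = 0.00704). IQD30 had 46.3, 37.0 and 52.1 in ozone, against 110.6, 85.8 and 87.6 in control (log2 ratio -1.07, SE 0.20, adjusted p = 0.00714). IQD24 had 54.4, 51.2 and 57.4 in ozone, against 98.5, 90.4 and 100.7 in control (log2 ratio -0.83, SE 0.16, adjusted p = 0.00748). Arrays of 1 group lay close together in IQD24, and the differences within replicate numbers 1, 2 and 3 were -0.86, -0.82 and -0.81 on the log2 scale.

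IQD23 had 84.3, 95.9 and 102.2 in ozone, against 54.1, 42.7 and 43.7 in control, and rose 2.02-fold (log2 ratio 1.01, SE 0.18, adjusted p = 0.00581). IQD22, known as a target gene of the DELLA repressors of gibberellin signalling, had 64.2, 66.8 and 63.4 in ozone, against 35.1, 23.3 and 32.6 in control. It rose 2.17-fold (log2 ratio 1.12, SE 0.21, adjusted p = 0.00696), or by 0.81 on the log2 scale with 16 added to every signal, since its controls were dim. For IQD22, IQD23 and IQD24, which have consecutive numbers in the family, the first 2 thus rose and the other fell, with no overlap of the groups in any of them.

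IQD31 had 110.5, 126.4 and 186.9 in ozone, against 219.0, 245.7 and 227.2 in control (log2 ratio -0.74, adjusted p = 0.0346). Its call held without ozone replicate 3 and was lost without any other array (adjusted p 0.0508 to 0.116) and without both replicates numbered 1. IQD19 had 28.0, 26.7 and 31.0 in ozone, against 46.4, 49.2 and 67.9 in control (log2 ratio -0.91, or -0.65 with 16 added; adjusted p = 0.0158, and 0.0640 and 0.0718 without ozone replicate 2 or control replicate 3). IQD28 had 43.6, 45.6 and 55.1 in ozone, against 68.2, 73.9 and 66.0 in control. IQD28 and IQD32 had log2 ratios of -0.53 and -0.36 and did not pass (adjusted p = 0.0581 and 0.336). IQD28 passed with the block (0.0255), without ozone replicate 3 (0.0472) and with eBayes without a variance trend.

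**Figure D3:**
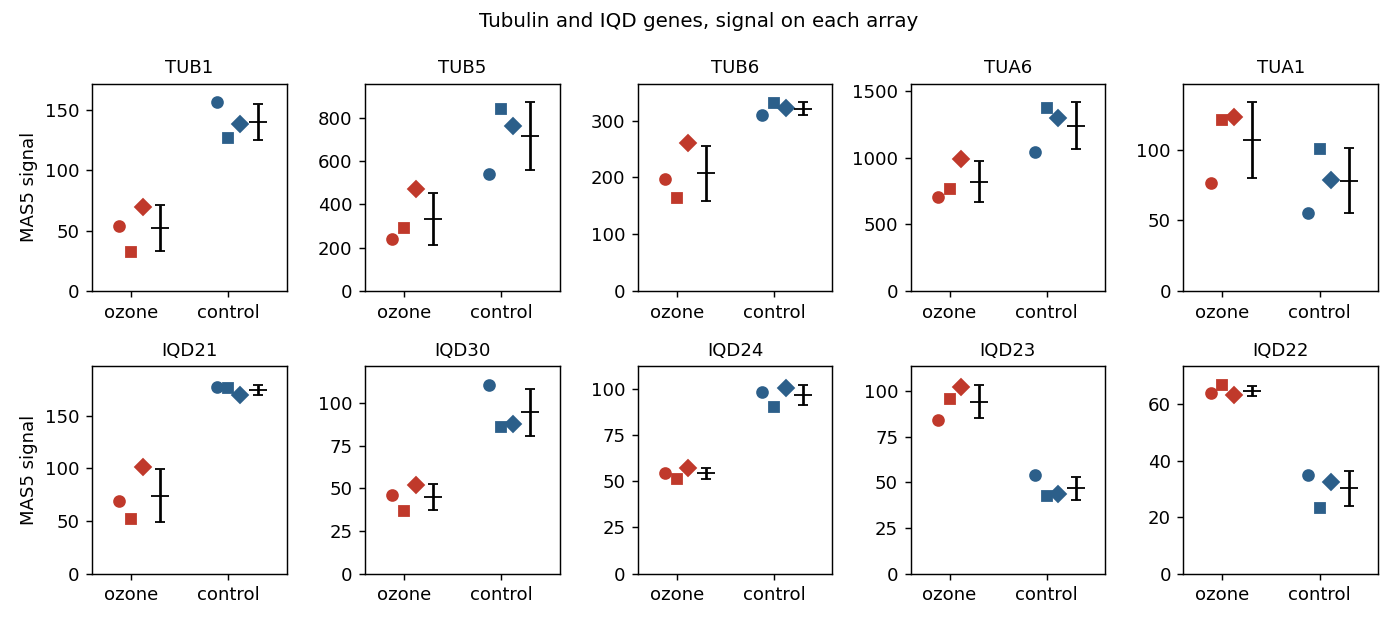
MAS5 signal (y axis, linear, from 0) of 5 tubulin and 5 IQD genes on each array, ozone left and control right. Circles, squares and diamonds are replicates 1, 2 and 3, and the bars beside them show the mean ± SD (n = 3). The groups overlap for TUA1, IQD22 and IQD23 are higher on every ozone array, and the other 7 genes are lower on every ozone array.

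Of 5 tested CSL genes, 1 rose, 0 fell and 4 did not pass (1 was lower at an unadjusted limma p under 0.05, and 2 fell with the block). CSLD2, known from the growth of root hairs, had 269.6, 300.1 and 241.0 in ozone, against 145.8, 168.3 and 138.7 in control. It rose 1.79-fold (log2 ratio 0.84, SE 0.16, adjusted p = 0.00710), with no overlap of the groups, while the root hair expansin EXPA7 fell. The changes of CSLD2 and EXPA7 were not compared in a test. No gene on the root hair marker list was named alone for a probe set in the array's annotation. CSLC04, the founding synthase of the xyloglucan backbone, had 241.8, 286.9 and 277.6 in ozone against 205.7, 244.3 and 213.7 in control, with overlap of the groups and a log2 ratio of 0.28 (adjusted p = 0.205). Its relatives CSLC5 and CSLC6 had log2 ratios of -0.56 and -0.31 (adjusted p = 0.163 and 0.480), and CSLC5 passed with the block (0.0116). CSLA03, of the family of mannan synthases, had 45.5, 27.4 and 43.9 in ozone against 54.0, 74.9 and 56.9 in control. Its log2 ratio of -0.69 did not pass, but did with the block and without both replicates numbered 1 (adjusted p = 0.0794, and 0.0431 with the block). Whether the CSL genes differ from the other families was not tested.

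**Figure D4:**
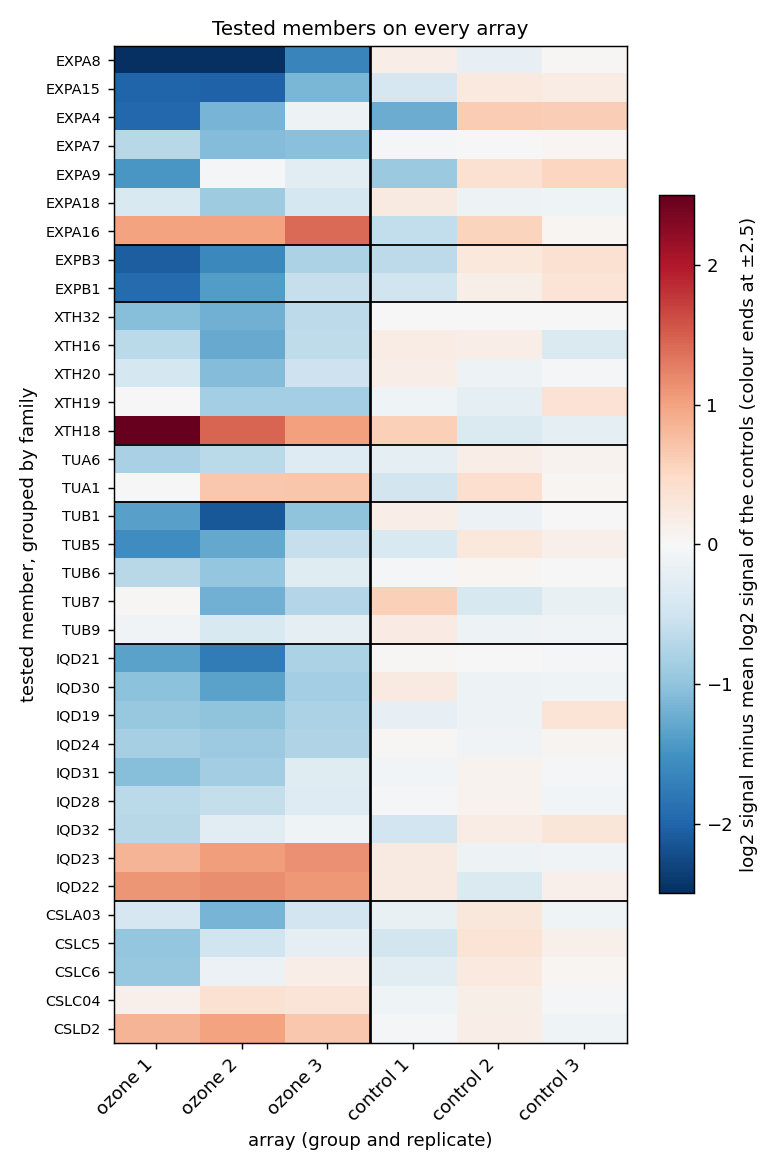
Log2 signal of the 35 tested members on every array (columns, ozone left and control right), minus the gene's mean log2 signal in the controls, grouped by family. Blue is lower and red higher than the control mean. The ozone columns are mostly blue, the third one is the palest for most genes that fell, and EXPA16, XTH18, IQD22, IQD23 and CSLD2 are red on all 3.

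The 3 ozone arrays did not differ from the controls by the same amount. Within replicate numbers 1, 2 and 3, the median difference of ozone from control over the 35 tested members was -0.65, -0.84 and -0.40 on the log2 scale, against -0.16, -0.19 and -0.10 over all tested probe sets. Ozone replicate 3 was the highest ozone array for 14 of the 15 members that fell, and for 63.6% of all probe sets that fell. For 33 of the 35 members the sign was the same in all 3 replicate numbers (94.3%, against 71.9% of all tested probe sets), lower for 26 and higher for 7. The exceptions were XTH19 and CSLC6.

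Arrays with the same replicate number deviated together from their group means, and the labels do not say what the number stands for. The pairing was clearest for number 1, while numbers 2 and 3 could not be told apart, since control replicate 2 deviated as much with ozone replicate 3 as with ozone replicate 2 (r = 0.413 and 0.374 over the tested probe sets). With the number as a block, 29 of the 35 members passed, 23 lower and 6 higher, where 49.1% of all tested probe sets did, 30.0% lower and 19.1% higher. Of these 29, 9 had not passed without the block, and they are plotted by number: 8 were lower and TUA1 was higher. Of the 9, 6 (EXPA4, EXPA9, TUA6, TUB7, CSLC5 and CSLA03) also passed without both replicates numbered 1. That fit called more probe sets in general: 4839 of 13648, 2742 lower and 2097 higher, against 3816 in the main fit. Of the 20 members called without the block, 10 passed in each of the 6 fits that left out 1 array: EXPA8, EXPA15, XTH32, TUB1, IQD21, IQD22, IQD23, IQD24, IQD30 and CSLD2.

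**Figure D5:**
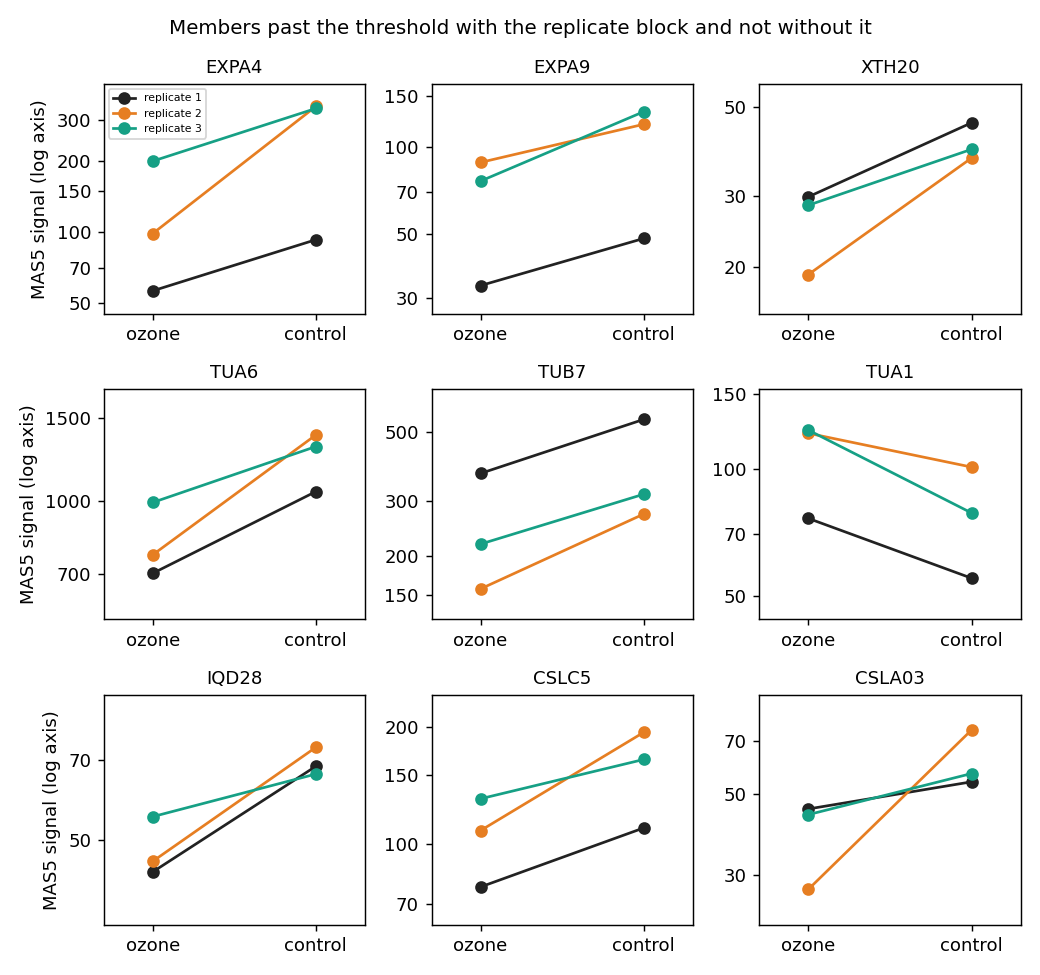
MAS5 signal (y axis, log scale) of the 9 members that passed the threshold with the replicate number as a block and not without it, ozone left and control right. Lines join arrays with the same replicate number. All lines of TUA1 run down to the control and all lines of the other 8 genes run up to it, while EXPA9 and TUB7 show replicate 1 apart from replicates 2 and 3 in both groups.

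The 17 members that were too dim to test were EXPA20, EXPA21, EXPA24, EXPB2, EXPB5, XTH21, XTH26, XTH29, XTH33, IQD15, IQD16, IQD18, IQD26, IQD27, IQD33, CSLA01 and CSLC12. Both group means were below 10 for 6 of them. XTH29 had 18.3, 33.7 and 26.4 in ozone, against 8.9, 10.5 and 3.2 in control, so that every ozone array was higher. In the fit without the filter it had a log2 ratio of 1.92 (limma adjusted p = 0.0443), where 16.4% of all 22746 probe sets passed and 8.34% were higher, but at such low signals the size is imprecise. In that fit 0 of the other 16 passed (limma), and 2 of them, IQD26 and IQD33, had an unadjusted p under 0.05 with negative log2 ratios. Of the 17, EXPB2, EXPA21 and IQD33 were lower on every ozone array, as were 21.8% of all probe sets. Another 13.8% of all probe sets were higher on every ozone array, as XTH29 was. EXPA21 and IQD33 were very dim, with no signal above 4.1 and 9.2 on any array.

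Other genes of the same processes were read from lists made by locus. Of 34 genes for microtubule-associated and tubulin-folding proteins 6 had a probe set of their own, and 0 passed (limma, 1 at an unadjusted p under 0.05, and 3 lower with the block). The steepest was the tubulin-folding cofactor TFCC, with 39.7, 30.6 and 43.9 in ozone against 48.8, 60.5 and 60.1 in control (log2 ratio -0.58, adjusted p = 0.0759, and 0.0355 with the block). SPR1, a microtubule plus-end protein, had a log2 ratio of -0.08 (adjusted p = 0.865), which changed sign without ozone replicate 2 or control replicate 1. Of 29 genes for wall synthesis, assembly and sensing 9 were found in this way and 7 were tested, of which 2 fell. The median log2 ratio over the 7 was 0.02. THE1, a receptor kinase that senses wall integrity, had 46.9, 64.1 and 77.8 in ozone, against 92.8, 117.9 and 112.0 in control (log2 ratio -0.80, adjusted p = 0.0330). CC2, a companion of the cellulose synthase complex on microtubules, had 38.6, 27.7 and 40.2 in ozone, against 49.0, 64.3 and 80.9 in control (log2 ratio -0.86, adjusted p = 0.0380, and not past the threshold without the filter). Leaving out ozone replicate 1, ozone replicate 2, control replicate 2 or control replicate 3 ended both calls (adjusted p 0.0701 to 0.113 for THE1 and 0.0549 to 0.141 for CC2), as leaving out ozone replicate 3 did for CC2 (0.0511).

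COB, a glycosylphosphatidylinositol-anchored protein of oriented cell expansion, had 171.6, 279.8 and 401.8 in ozone against 330.1, 686.8 and 559.5 in control. Its log2 ratio of -0.91 did not pass (adjusted p = 0.0981), but did with the block (0.00143), without control replicate 1 (0.0327) and without both replicates numbered 1. FER, a receptor kinase of the same family as THE1, had a log2 ratio of 0.12 (adjusted p = 0.619), which changed sign without control replicate 1 and without both replicates numbered 1. CC1 and the expansin-like genes EXLB1 and EXLA1 also had positive log2 ratios (0.36, 0.30 and 0.02, limma adjusted p = 0.539, 0.392 and 0.977). The sign changed without control replicate 1 for CC1, and without ozone replicate 1 or 2 or control replicate 2 or 3 for EXLA1. EXLA2 and EXLA3 were too dim to test. Without the filter their log2 ratios were -2.13 and -1.58 (limma adjusted p = 0.0312 and 0.182), in a fit where 16.4% of all 22746 probe sets passed. No signal of either gene was above 15.6 on any array, so the sizes are imprecise. Of 31 growth hormone signalling genes the annotation names only HAT2 alone for a probe set. The log2 ratio of HAT2 was 0.04 (adjusted p = 0.934) and changed sign in 4 of the 6 fits that left out 1 array.

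Markers of cell types were few. FMA and SPCH, 2 of 4 on the guard cell list, summed to signals of 48.6 to 68.4 in ozone and 43.9 to 98.9 in control. SPCH was too dim to test. FMA did not pass (log2 ratio -0.34, adjusted p = 0.372, and 0.0518 without control replicate 1), but did without both replicates numbered 1. Of the root list PYK10 was the only 1 of 3 that the annotation names alone for a probe set. The lists for xylem, root hairs, epidermis, phloem and dividing cells had 0 such genes. The reference genes PEX4, TIP41L and AT2G28390 had log2 ratios of 0.09, -0.13 and -0.21, and 0 of 3 passed (limma, 0 at an unadjusted p under 0.05).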

How the data were processed

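Whole seedlings were measured on 6 Affymetrix ATH1 arrays, 3 per group. The deposited values are MAS5 signal intensities per probe set, with MAS5 named without a version per the submitters' processing notes, and each array already scaled. No source used here gives a genome build or detection calls. Array medians lay between 41.7 and 49.5. Precision is limited by how few arrays there are.

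Signals were taken to log2 with the 95 zeros replaced by the lowest positive value on the same array, and were not normalized further. After removal of 64 control probe sets and a filter at the 40th percentile of mean log2 signal (31.2), 13648 probe sets were tested with limma 3.58.1 in R 4.3.3 (lmFit, eBayes with a trend, two-sided), p-values adjusted after Benjamini and Hochberg over all of them, and a threshold of 0.05. Each adjusted p is from this limma fit unless a setting is named. Members were read from that fit, and no test was made on a family. For names and neighbours only, loci were taken from the RefSeq gene table (TAIR10.1), where all 52 members matched. The code was tested on simulated data.

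Groups and replicate numbers come from the sample titles. Nothing in the labels says that replicates were separate plants or cultures, and p-values therefore reflect the spread of these samples only, part of which may be technical. Over the tested probe sets, the deviation of an ozone array from its group mean correlated with that of the same-numbered control at r = 0.747, 0.374 and 0.439 (numbers 1, 2 and 3). All were above the bound of 0.1 for reading the number as a pairing. Deviations within a group cancel out, so once the arrays numbered 1 deviate together, numbers 2 and 3 correlate positively on average. Passing the bound therefore does not show numbers 2 and 3 to be pairs. Control replicate 2 correlated better with ozone replicate 3 (0.413) than with its own number, so that numbers 2 and 3 were not distinguished. The main fit has no block, and a blocked value is printed beside a result whose call it changes.

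Members and lists were chosen with earlier results of these data known. Any member could be named. Values on every array are given for up to 4 members per family with the smallest p among those that passed and for the brightest of each family, and further for members that a comparison turned on, chosen after their values were seen. List genes were named where they passed or had the smallest p, and COB, SPR1, FER, CC1 and the expansin-like genes after their values were seen. The analysis was repeated with other scalings (median centring or quantile normalization), with 16 or 64 added to signals, with the filter dropped or moved to the 60th percentile, with robust or trend-free eBayes, with the block, and without shared probe sets, single arrays or both arrays numbered 1. A planned search for promoter motifs and a comparison of protein sequences were not made.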

Additional observations from a re-analysis of the deposited data

How the results depend on the processing

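Quantile normalization and robust eBayes kept the call and direction of all 35 tested members. The number of members that fell was 15, and 23 with the replicate block, while all probe sets past the threshold were 3816, and 6699 with the block. With the block EXPA had 5 lower, TUA 1 higher and 1 lower, and CSL 2 lower. Without both replicates numbered 1, EXPA had 5 lower, TUA 1 lower and CSL 2 lower. With the filter at the 60th percentile, which leaves out dim members, 2 members rose, with 0 in EXPA and 0 in IQD, while EXPB had 1 lower, TUA 1 lower and IQD 3 lower. Without the filter EXPB had 1 lower. With median centring XTH had 1 lower, and with 16 or 64 added TUA had 1 lower. Median centring turned the split of all calls to 53.3% higher, against 46.6%, but that of the members stayed at 26.3% higher, against 25.0%.

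With 1 array left out, all calls ranged from 2246 to 3690 (2246, 2408 and 2273 without ozone replicate 2, without control replicate 2 and without control replicate 3), members higher from 3 to 5 (3 without ozone replicate 2 or without control replicate 3) and members lower from 8 to 17 (8 without ozone replicate 2 or without control replicate 3, and 9 without control replicate 2). By family, EXPA had 0 to 1 higher and 2 to 4 lower, EXPB 0 to 2 lower, XTH 0 to 1 higher and 1 to 3 lower, TUA 0 to 1 lower, TUB 1 to 3 lower, IQD 2 higher and 3 to 6 lower, and CSL 1 higher. Direction changed once among the 35 members over all alternatives run: CSLC6, which had not passed at -0.31, had 0.013 without ozone replicate 1 and between 0.013 and -0.54 over the fits with 1 array left out. The causes of these shifts were not tested. Dim signals limit the folds of EXPA7, EXPA8, IQD19 and IQD22, each with 1 group mean below the filter level on the log scale. With 64 added, the folds of 7 called members (EXPA7, EXPA8, EXPA16, EXPB1, XTH18, TUB1 and IQD22) were smaller by over 1.5 times.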

Other observations

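The probe set that the annotation assigns to both TUA3 and TUA5, and which therefore is no member, had signals of 688.1, 658.0 and 913.4 in ozone, against 1201.3, 1278.9 and 1414.3 in control. Every ozone array was lower, with a log2 ratio of -0.80 (SE 0.18, limma adjusted p = 0.0134, and 0.0598 and 0.0651 without ozone replicate 2 or control replicate 3). A further xyloglucan synthase gene of the CSLC group, listed as ATCSLC08 and so outside the naming rule, had 34.3, 34.9 and 59.2 in ozone, against 51.7, 75.5 and 113.7 in control. Its groups overlapped, and its log2 ratio of -0.88 did not pass (limma adjusted p = 0.0863, and 0.00266 with the block). It was 0.0494 and 0.0307 without ozone replicate 3 or control replicate 1, and it passed without both replicates numbered 1.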
